A study of Mus musculus with 4 samples.

Results

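In 4 single-cell RNA sequencing libraries of mouse adipose tissue, 62 of 4927 barcodes were assigned to endothelial, mural and mesothelial cells. A barcode is the tag of a droplet, here 1 cell or nucleus. A barcode was kept if it held at least 200 genes and at most 25% mitochondrial reads counted as unique molecules (UMIs). It then had to have 0 UMIs of Ptprc, the pan-leukocyte surface phosphatase, and 0 of Pdgfra, a receptor of adipose stromal cells. Members were chosen by measured values, as the barcodes with a summed count of at least 3 UMIs over Cdh5, Cldn5, Egfl7 and Mmrn1 (endothelial), over Rgs5, Notch3, Myh11 and Kcnj8 (mural) or over Msln, Upk3b and Lrrn4 (mesothelial), with the highest sum giving the type. This gave 25 endothelial, 23 mural and 14 mesothelial barcodes among 4136 kept ones. The UMIs of these 11 genes therefore chose the members, and their values below are a description.

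Vessels of fat are lined by endothelial cells, which pass fatty acids to adipocytes, while blind-ended lymphatic vessels lined by a separate endothelial lineage drain fluid and immune cells. Mural cells wrap these tubes: pericytes lie on capillaries, and contractile smooth muscle cells encircle arteries and larger veins. The mesothelium is the epithelium-like sheet that covers visceral organs and visceral fat.

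The study asked what loss of Tert, the catalytic subunit of telomerase, in endothelial cells does to fat. WT mice were Tie2e-cre; TERT+/+; mTmG and KO mice were Tie2e-cre; TERTfl/fl; mTmG, so that every group carried the Cre and the reporter. Cre was driven by regulatory sequence of Tie2 (gene symbol Tek), which is known to act in endothelium and also in blood cells, and mTmG turns from tdTomato to GFP where Cre has acted. All mice were male, 7 months old and had 5 months of high-fat diet (HFD). Subcutaneous (SC) and intraperitoneal visceral (IP) fat of each genotype gave the 4 groups, with 1 library per group. The labels state no number of mice per library and name both cells and nuclei as material. There was no replicate check of any difference between groups, and intervals below are 95% intervals that cover counting error only.

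Kept barcodes numbered 971 (WT) and 1969 (KO) for SC and 675 (WT) and 521 (KO) for IP, and the median depth of kept barcodes lay between 6722 UMIs in KO SC and 13054 in WT IP. Barcode sequences were shared between KO SC and WT IP only, where 93 were kept in both. For these 93 the median depth was 601 UMIs in KO SC and 35392 in WT IP, and the KO SC copy held a median of 1.71% of the WT IP count, at most 20.1%. Of the members, KO SC endothelial 2 shared its barcode with WT IP endothelial 1, and KO SC mesothelial 1 shared its barcode with a WT IP barcode of mesothelial sum 120 that was no member, since it held 1 Pdgfra UMI. The barcodes of WT IP endothelial 2 and WT IP mesothelial 1 also occurred in KO SC, where neither was a member. For WT IP mesothelial 1 the KO SC barcode held 505 UMIs. For WT IP endothelial 2 it held 8723 UMIs, 20.1% of the WT IP count, and 2 Ptprc UMIs against 0 in WT IP. Whether that barcode was a copy was not tested. Shares, GFP counts, and counts of calls and list medians over all endothelial barcodes are given with and without the shared barcodes. Values restricted to barcodes with Mmrn1, and the other UMI counts and levels, include them.

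Endothelial barcodes were mainly from WT IP. WT IP gave 16 of the 25, KO IP gave 5, and each SC library gave 2. They made up 2.37% of kept barcodes of WT IP (1.36% to 3.82%) and 0.960% of those of KO IP (0.312% to 2.23%). The KO to WT ratio of shares was -1.30 on the log2 scale in IP, with an interval of -3.11 to 0.21 that includes 0. Without the shared barcodes WT IP kept 14 endothelial barcodes of 582 (2.41%) and KO SC kept 1 of 1876 (0.0533%).

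Mural barcodes were spread over all libraries. SC gave 4 from WT and 7 from KO, IP gave 3 from WT and 9 from KO, and none of them was a shared barcode. In KO IP they made up 1.73% of kept barcodes (0.793% to 3.25%) against 0.444% in WT IP, a log2 ratio of 1.96 with an interval of -0.04 to 4.48. In SC the log2 ratio was -0.21 (-2.19 to 2.01). The IP ratio turned with the rule on Pdgfra. When barcodes with Pdgfra were admitted, 28 barcodes of KO IP and 49 of WT IP met the mural sum and had it as their highest. The log2 ratio then became -0.43. The 46 barcodes so added in WT IP and the 19 in KO IP had a median mural sum of 5 UMIs at median depths of 30419 and 26358 UMIs, and 1 and 2 of them reached a sum of 20. Of the rule genes, those of WT IP held 1 Rgs5, 184 Notch3, 101 Myh11 and 3 Kcnj8 UMIs in all. Those of KO IP held 5 Rgs5, 36 Notch3, 90 Myh11 and 70 Kcnj8 UMIs, the last in 6 barcodes.

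Mesothelial barcodes came almost entirely from KO IP. That library held 12 of the 14, or 2.30% of its kept barcodes (1.20% to 3.99%). WT IP held 1, KO SC held 1 and WT SC held 0 of 971, which allows a share of up to 0.309%. The log2 ratio of KO to WT in IP was 3.96, and its interval of 1.20 to 9.38 lay above 0. With the shared barcodes left out, neither KO SC nor WT IP held a mesothelial member. With Pdgfra-carrying barcodes admitted, KO IP had 27 mesothelial barcodes against 3 for WT IP (log2 ratio 3.54). With 1 library per group, a difference between genotypes cannot be told apart from a difference between dissections or library preparations.

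**Figure D1:**
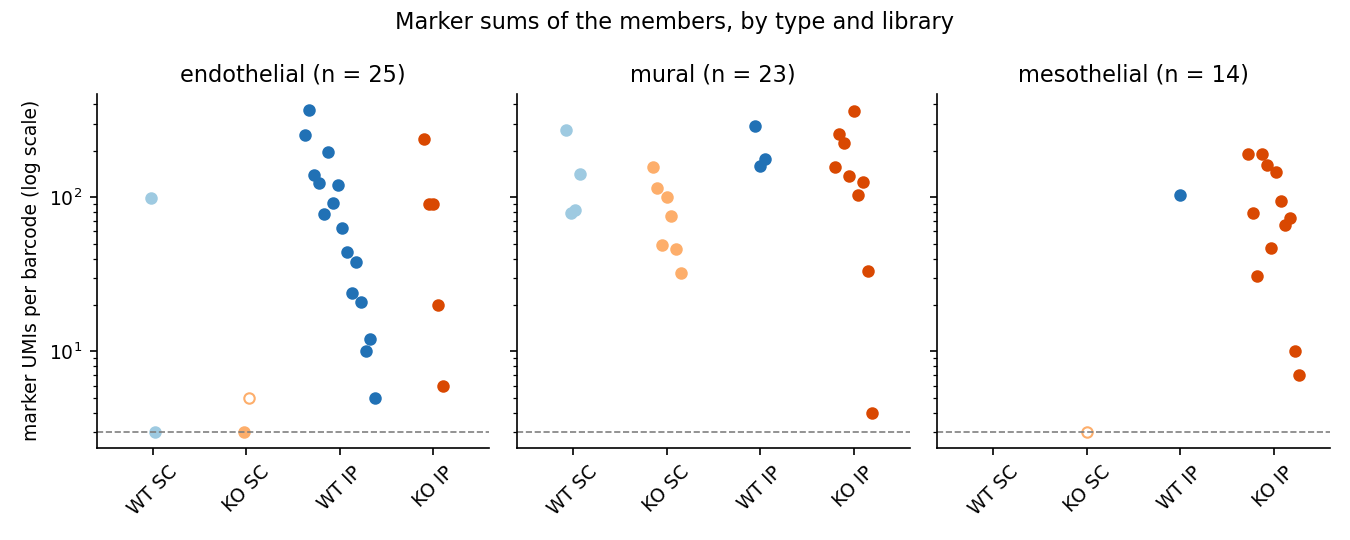
Summed UMIs of the rule genes in each of the 62 member barcodes, by type and library, on a log axis; each point is 1 barcode and the horizontal axis is the library. Endothelial points are most numerous in WT IP, where 16 of 25 lie, and mesothelial points in KO IP, where 12 of 14 lie.

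Sums were mostly far above the threshold. A sum of exactly 3 was found in 2 endothelial, 0 mural and 1 mesothelial barcodes, and 2 endothelial, 5 mural and 0 mesothelial barcodes lay just outside with a sum of 2. Only 1 member had sums of at least 3 for more than 1 type, KO IP mesothelial 4, with a mesothelial sum of 191 and a mural sum of 4. Scrublet, a doublet caller, marked 0 of the 62. Median depth was 10849 UMIs in endothelial, 16350 in mural and 29724 in mesothelial barcodes. Depth and a fixed sum of 3 move together, and the part of depth in the shares was not tested.

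Genes outside the rule were ranked over all other kept barcodes in the libraries with at least 5 members, which were both IP libraries for endothelial and both KO libraries for mural barcodes. The genes furthest higher were, in endothelial barcodes, Nts, Myct1, Reln, Tie1 and Ccl21a, of which Tie1 is an endothelial receptor and Reln and Ccl21a are products of lymphatic endothelium. Nts, Reln and Ccl21a were at 0 in the WT SC endothelial barcodes, as was Reln in those of KO SC. In mural barcodes the order was led by Olfr558, Xirp1, Olfr78, Rergl and Sncg. These were picked in the same barcodes and are a description. Markers of leukocytes, red cells and epithelium were low in endothelial and mural barcodes. The epithelial list was at 0 UMIs in all 48 of them. T cell, B cell and natural killer lists reached at most 4 UMIs in any member, and macrophage and monocyte genes reached 14 UMIs in 1 endothelial barcode and 2 in mural ones. Lymph node stromal genes reached 132 UMIs in 1 endothelial, 28 in mural and 134 in mesothelial barcodes, and red cell genes at most 8 UMIs. Adipose stromal genes ranged from 0 to 52 UMIs in endothelial, 0 to 213 in mural and 3 to 900 in mesothelial barcodes. They exceeded the pericyte list in WT IP mural 2 (213 against 198 UMIs) and KO IP mural 9 (24 against 19).

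Among endothelial barcodes, lymphatic identity prevailed in IP. Mmrn1, an extracellular glycoprotein of lymphatic endothelium and 1 of the rule genes, had 1 to 138 UMIs in 13 of 16 WT IP barcodes, with a median of 33 over the 16. In KO IP the 5 values were 165, 60, 59, 11 and 0 UMIs. Both WT SC barcodes had 0, and in KO SC the values were 0 and 2, the latter in the shared barcode. Mmrn1 was thus seen in IP barcodes of both genotypes, and in SC only in a copy of a WT IP barcode.

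Prox1, the transcription factor that specifies the lymphatic lineage, was no rule gene. It was counted in 12 of 16 WT IP barcodes, from 0 to 89 UMIs with a median of 4.5, and its KO IP values were 41, 7, 8, 8 and 0 UMIs. Lyve1, the hyaluronan receptor of lymphatic capillaries, ranged from 0 to 85 UMIs with a median of 20.5 in WT IP and was 211, 77, 63, 2 and 0 UMIs in KO IP. The barcodes without Mmrn1 in IP, which were WT IP endothelial 5, 13 and 14 and KO IP endothelial 5, had 0 UMIs of Prox1, Lyve1, Reln and Ccl21a. Ccl21a, the chemokine with which lymphatic vessels attract dendritic cells, was the most abundant of these genes. It was counted at 6773 UMIs in WT IP, a level of 24180 CPM (UMIs scaled to 1e6 per sum of barcodes), and 2404 UMIs in KO IP, or 29520 CPM. Its near-identical gene copies can share reads, so that its level is uncertain.

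The promoter of Mmrn1 is shown because this gene divides the IP endothelial barcodes, and that of Rgs5 because it divides the mural ones described below. Each is the 250 bases before the start site in RefSeq on GRCm38.p6, on the plus strand, at chr6:60944067-60944316 for Mmrn1 and chr1:169655251-169655500 for Rgs5. The Mmrn1 window lies inside the gene as annotated elsewhere (chr6:60924976-60989378), so it may not be the main promoter. Capitals mark GGAA on either strand, the core letters of ETS factor motifs, which lie in many endothelial promoters.
Mmrn1: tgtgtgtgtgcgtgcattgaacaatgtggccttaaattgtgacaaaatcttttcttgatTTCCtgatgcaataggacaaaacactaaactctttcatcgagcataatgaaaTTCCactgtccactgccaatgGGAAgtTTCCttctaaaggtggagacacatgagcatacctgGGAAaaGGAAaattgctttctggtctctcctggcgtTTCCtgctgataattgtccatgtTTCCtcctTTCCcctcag
Rgs5: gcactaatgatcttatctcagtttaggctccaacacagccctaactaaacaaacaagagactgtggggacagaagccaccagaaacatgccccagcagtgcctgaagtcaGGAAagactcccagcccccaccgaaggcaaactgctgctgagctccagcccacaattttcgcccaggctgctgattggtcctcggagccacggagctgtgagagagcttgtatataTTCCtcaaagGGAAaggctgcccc
The window of Mmrn1 holds 9 matches and that of Rgs5 holds 3. These letters are common, since 93.4% of 32851 promoters of the same length hold at least 1 match, so a match is no mark of either gene.

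Blood vessel genes marked the remaining endothelial barcodes. Flt1, a VEGF receptor of blood endothelium, had 20 and 9 UMIs in WT SC and 5 and 0 in KO SC. In WT IP it had 33, 6 and 2 UMIs in endothelial 5, 13 and 14, 4 UMIs in endothelial 1, and 0 in the other 12. All 5 KO IP barcodes had 0. Counted as lists, lymphatic genes outnumbered genes of blood capillaries and lipid uptake in UMIs in 18 of 25 barcodes, which were 13 in WT IP, 4 in KO IP and 1 in KO SC. KO IP endothelial 5, at 2092 UMIs, had 0 lymphatic and 1 capillary UMI and could not be placed by either list, although it had 4 UMIs of Cdh5 (VE-cadherin).

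Fabp4, the fatty acid chaperone of capillary endothelium and adipocytes, followed the same split. WT IP endothelial 5 held 175 of the 222 Fabp4 UMIs of its library, endothelial 13 held 23 and endothelial 14 held 6, whereas KO IP had 0 UMIs, which allows up to 36.8 CPM. In SC it was counted in 3 of 4 endothelial barcodes, with 41, 3 and 16 UMIs. Gpihbp1, which anchors lipoprotein lipase on capillaries, had 66 UMIs in 12 WT IP barcodes and 8 in 3 KO IP barcodes, and was at 0 in the 4 SC barcodes. It lay on the other side of the split from Fabp4, since all 12 WT IP barcodes with it had Mmrn1, while WT IP endothelial 5, 13 and 14 and KO IP endothelial 5 had 0.

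**Figure D2:**
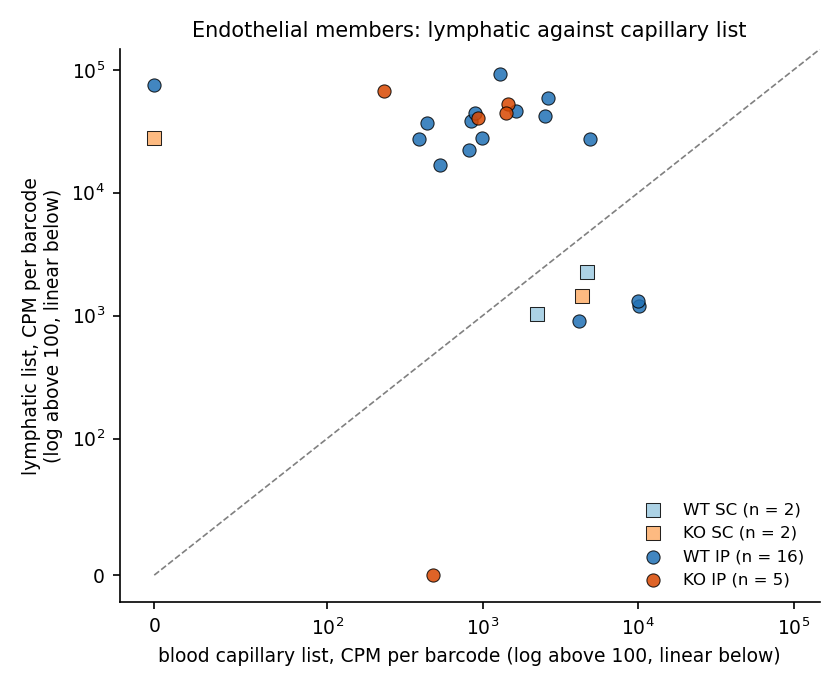
Level of the lymphatic list against that of the blood capillary and lipid uptake list in each of the 25 endothelial barcodes, in CPM of that barcode, coloured by library. Of the 25 barcodes, 18 have more UMIs of the lymphatic list than of the capillary list, and 13 of these are from WT IP.

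KO and WT were set side by side only for endothelial barcodes of IP, where both libraries had at least 5 members. The UMIs of 16 WT and 5 KO barcodes were summed, and 3381 genes with at least 20 UMIs were compared. A gene was called when it differed by at least 2 times and its counting interval excluded equality. By this rule 355 genes (10.5%) were higher in KO and 222 (6.57%) were lower, with a median log2 ratio of 0.037 over all genes compared. These are counts over 2 libraries and not of genes changed by genotype. Depth was unequal within the sums, since KO IP endothelial 1 held 51226 of the 81436 KO UMIs (62.9%), and the WT sum was 280102 UMIs. At least 50% of the KO UMIs came from 1 barcode in 330 of the 355 higher genes. Without the deepest barcode of each library 69 of the 355 higher and 57 of the 222 lower calls were kept.

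The genes furthest higher in KO rested on few UMIs. Fgf13, an intracellular fibroblast growth factor homologue, had 33 UMIs in KO against 8 in WT (log2 ratio 3.76), of which 26 were in 1 barcode. Mctp1 had 38 against 10 (3.66) and Wwox 30 against 13 (2.96), and these 3 genes were too low to be compared without the deepest barcodes. Tppp3, a tubulin-binding protein, had 46 UMIs against 14 (3.46), and 3.58 without the deepest barcodes. Gbp2, an interferon-induced GTPase, had 48 against 18 (3.17), 43 of them in KO IP endothelial 1, and was no longer called without it (1.08). Of these 5 genes Tppp3 alone was called with and without the deepest barcodes.

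The genes furthest lower in KO were mostly carried by few WT barcodes. Fabp4 had 0 UMIs against 222, a log2 ratio of at most -4.43. Slc41a1, a magnesium transporter, had 1 UMI against 150 (-4.87), of which 144 were in WT IP endothelial 1, and was not called when barcodes were weighted equally (-1.58). Cd74, the invariant chain of MHC class II, had 1 against 149 (-4.86), with 114 in WT IP endothelial 3. Clu (clusterin, 0 against 87) and Ly6a (Sca-1, 0 against 85) had log2 ratios of at most -3.08 and -3.04. Fabp4, Clu and Ly6a did not reach 20 UMIs among barcodes with Mmrn1 and were not compared there.

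Restricting both sides to barcodes with Mmrn1 left 4 KO and 13 WT barcodes. Here 339 of 3115 genes (10.9%) were higher and 196 (6.29%) lower, and 309 and 174 of the calls over all endothelial barcodes were kept. With the shared barcodes left out, 304 of 2513 genes (12.1%) were higher and 184 (7.32%) lower.

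Of the genes named above, Fgf13 (3.43), Mctp1 (4.53), Wwox (3.30), Tppp3 (3.70) and Gbp2 (2.46) were also called higher without the shared barcodes. Cd74 was called lower there (-5.54), as were Fabp4, Clu and Ly6a (at most -5.13, -3.61 and -3.76), and Slc41a1 did not reach 20 UMIs.

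Of 16 lymphatic genes compared, 3 were higher in KO and 3 lower, with a median log2 ratio of 0.26. Lyve1 (353 against 420 UMIs, 1.53), Reln (229 against 341, 1.21), a secreted matrix protein, and Maf (102 against 113, 1.64), a transcription factor, were higher. Nts, neurotensin, was lower (53 against 721, -1.97), as were Fgl2 (66 against 475, -1.06) and Cldn11, which had 0 UMIs against 20 in 1 WT barcode. Prox1 (-0.26), Ccl21a (0.29) and Pdpn (0.22), the podoplanin gene, were not called. Nts turned on the shared barcodes, which held most of its WT UMIs. Without them it had 53 against 113 UMIs (-0.02, not called), and 4 of 15 lymphatic genes were higher and 1 lower (Fgl2), with a median of 0.38.

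Capillary and lipid uptake genes were lower in KO for 5 of 7, with a median of -2.82, or -2.19 with genes at 0 UMIs set to their bound. Fabp4, Ly6c1, Plvap, Cd36 and Gpihbp1 were lower and Aqp1, a water channel, was higher (46 against 46 UMIs, 1.78). Among barcodes with Mmrn1 the list had 5 genes compared, 1 higher and 3 lower, with a median of -1.31. Arterial genes were lower for 3 of 7 (Efnb2, Gja4 and Sema3g; median -0.99) and pan-endothelial genes for 3 of 18 (Esam, Flt1 and Sox18; median -0.19), with none higher in either list. Of 12 junction genes 2 were lower, Esam and Plvap, with a median of -0.25. The mixture of vessel types differed between the libraries beside these values, since capillary UMIs exceeded lymphatic ones in 3 of 16 WT IP barcodes and, by 1 UMI, in 1 of 5 KO IP barcodes. The part of this mixture was not tested. Without the shared barcodes 5 of 7 capillary genes (median -3.21), 4 of 7 arterial genes (-1.25), 4 of 17 pan-endothelial genes (-0.34) and 2 of 11 junction genes (-0.47) were lower, and 1 capillary and 1 pan-endothelial gene were higher.

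Lists of other cells moved between these endothelial barcodes as well. All 3 pericyte genes compared were higher in KO (Ebf1, Gucy1a1 and Gucy1b1; median 1.65), and without the shared barcodes both of those still compared. The 1 macrophage and monocyte gene compared, the mannose receptor gene Mrc1, was higher (23 against 28 UMIs), but not called without the shared barcodes (0.84). Of 3 lymph node stromal genes Ccl19 and Clu were lower and Il7 was higher (median -2.47, and -3.18 without the shared barcodes). Their part in the other values was not tested.

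Genes of growth factor signalling included 3 calls among 8 of the VEGF and Angiopoietin system. Angpt2, the Tie2 ligand that endothelium releases, had 173 UMIs in 10 WT barcodes and 5 UMIs in 1 KO barcode (-3.20, -4.97 to -2.08). Nrp2, a co-receptor for VEGF-C, was higher (62 against 91, 1.23), and Flt1 was lower (0 against 45). The lymphatic VEGF receptor Flt4 had 139 UMIs in 14 WT barcodes and 70 in 4 KO barcodes (0.80, not called), and Kdr had 113 and 31 (-0.07). Of 5 PDGF and Notch genes, Hes1 (114 against 125, 1.65) and Pdgfd (14 against 15, 1.69) were higher, and Notch1 (16 against 64) was at -0.18. Without the shared barcodes Nrp2 (0.74) and Pdgfd (1.17) were not called, and Angpt2 was at -2.04 (called).

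Called hypoxia genes went both ways, while the called glycolysis genes and senescence regulators were all lower in KO. Of the 10 glycolysis genes 4 had a log2 ratio above 0, as had 2 of the 5 senescence regulators. Over all genes compared 6.57% were lower. Among 9 hypoxia genes 2 were higher (Kdm3a and P4ha1) and 3 lower (Adm, Hif1a and Ldha), with a median of 0.22. Hif1a had 1 UMI in KO against 26 in 9 WT barcodes. Of 10 glycolysis genes 4 were lower, which were Aldoa, Gapdh, Ldha and Pgam1, and none was higher, with a median of -0.39. Of 5 senescence regulators Ccnd1 and Gadd45b were lower. Cdkn1a, the p21 inhibitor of cyclin-dependent kinases, had 51 UMIs in 3 KO barcodes (626 CPM), 42 of them in KO IP endothelial 1, and 119 UMIs in 9 WT barcodes (425 CPM). None of 12 mitochondrially encoded genes was called, at a median of -0.43 that became 0.27 with barcodes weighted equally. Without the shared barcodes 1 of 7 hypoxia genes was higher and 2 lower (median 0.51), 3 of 7 glycolysis genes (-0.89), 2 of 4 senescence regulators (-1.87) and 2 of 12 mitochondrially encoded genes (-0.50) were lower.

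Matrix genes were lower in KO for 5 of 14 and higher for 1. Fn1 had 4 UMIs against 125 (-3.02), and Sparc had 0 against 40 in 9 WT barcodes. Lamc1, a laminin chain, was higher (31 against 40, 1.42). Of 20 dissociation and immediate early genes 4 were higher (Fos, Atf3, Hspa1a and Zfp36), with a median of 0.31. That median was -1.14 without the deepest barcodes and -0.31 with equal weights, so that its sign turned. Without the shared barcodes 5 of 20 were higher (median 0.39), and 1 of 14 matrix genes was higher and 5 lower (median -0.23). The part of tissue handling in the other values was not tested.

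Mural barcodes mostly carried contractile genes. Myh11, smooth muscle myosin, and Notch3, its companion receptor in vessel walls, were counted in all 23, and both are rule genes. Acta2, smooth muscle actin, was not used by the rule and was counted in 21 of 23. Its values were 298, 327, 48 and 0 UMIs in WT SC and 379, 232 and 254 in WT IP. It ranged from 9 to 435 UMIs with a median of 69 in KO SC and from 0 to 348 with a median of 243 in KO IP. The 4 groups overlapped, and the summed levels were 11139 and 10822 CPM for SC of WT and KO and 11870 and 9158 CPM for IP of WT and KO.

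Tagln, an actin-binding protein, had 9666, 7990, 12282 and 8343 CPM in the same order, and Myl9, the regulatory myosin light chain, had 4701, 4400, 3829 and 3979 CPM. UMIs of the contractile list exceeded those of the pericyte list in 21 of 23 barcodes. The exceptions were WT SC mural 4, with 25 contractile and 138 pericyte UMIs, and KO IP mural 9, with 4 and 19. The contractile list holds abundant genes such as Acta2 and Tagln, so a comparison of summed UMIs leans to it and cannot exclude pericytes. WT SC mural 3 and WT IP mural 1 lay on the contractile side with 15 of 17 pericyte genes seen and 70 and 164 Rgs5 UMIs. KO IP mural 9 had a sum of 4 and no Acta2. It and KO IP mural 8 had 0.482% and 0.285% mitochondrial UMIs, against a median of 6.78% over mural barcodes.

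The promoter of Myl9 is shown because its contractile gene was at similar levels in the 4 libraries. The 250 bases before its start in RefSeq lie at chr2:156775214-156775463 on the plus strand of GRCm38.p6, and capitals mark a CArG box, the motif bound by serum response factor.
Myl9: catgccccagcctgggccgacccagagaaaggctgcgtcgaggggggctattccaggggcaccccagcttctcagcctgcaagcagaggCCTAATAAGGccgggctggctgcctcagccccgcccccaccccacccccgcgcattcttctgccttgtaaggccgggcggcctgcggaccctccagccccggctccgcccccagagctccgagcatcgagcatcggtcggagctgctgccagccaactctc
A CArG box is in 1.47% of 32851 promoters of this length and in 2 of 20 promoters of the 17 contractile genes that matched by symbol, those of Myl9 and Srf. That of Acta2 had no match in this window.

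Of 17 genes on the pericyte list, 14 were counted in a larger share of the 7 WT than of the 16 KO mural barcodes, 2 in a larger share of KO ones (Pdgfrb and Cspg4), and Ebf1 in all. For Gucy1a1 and Mcam the shares were 7 of 7 and 15 of 16, a difference of 1 KO barcode. The same count over all genes was not made, so a general difference in detection cannot be told apart here. The shallowest mural barcode held 3524 UMIs in KO and 6747 in WT. Members came from 2 libraries per genotype, and this difference was not tested. Rgs5, a G-protein regulator of pericytes and a rule gene, had 1, 1, 70 and 132 UMIs in WT SC and 164, 102 and 0 in WT IP. In KO SC 2 of 7 barcodes had it, with 25 and 67 UMIs, and in KO IP 3 of 9 had it, with 78, 153 and 99 UMIs. Rgs5 was therefore either high or near 0 in a barcode, with high and low barcodes in each library. Kcnj8, a potassium channel subunit and also a rule gene, was counted in 4 of 7 WT and 1 of 16 KO barcodes.

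Some pericyte genes outside the rule were at 0 in KO. Vtn, vitronectin, had 10 UMIs in 2 of 4 WT SC and 90 UMIs in 2 of 3 WT IP barcodes (166 and 1235 CPM), and 0 UMIs in all 16 KO barcodes, which allows up to 36.8 CPM in KO SC and 16.1 CPM in KO IP. Colec11, a collectin, had 7 UMIs in 1 WT SC and 55 in 2 WT IP barcodes and 0 in KO. Steap4, a metalloreductase, was counted in 3 of 7 WT barcodes, with 16 UMIs in SC and 2 in IP, and in 0 of 16 KO barcodes. Abcc9, the regulatory subunit of that potassium channel, was counted in 4 of 7 WT and 5 of 16 KO barcodes. Higd1b was counted in 7 of 7 WT and 7 of 16 KO barcodes, with 166 and 24.5 CPM for SC and 110 and 91.2 CPM for IP, WT before KO. Pdgfrb, the receptor through which endothelium recruits pericytes, was counted in 5 of 7 WT and 13 of 16 KO barcodes, and Cspg4, the NG2 proteoglycan, in 4 of 7 and 11 of 16. Levels of Pdgfrb were 99.3 and 196 CPM for SC and 275 and 215 CPM for IP in that order.

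**Figure D3:**
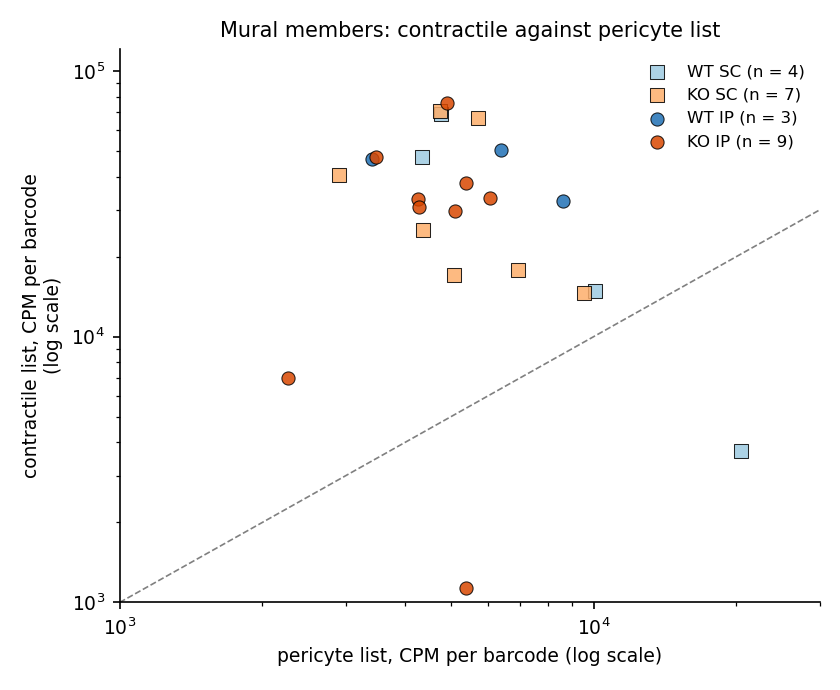
Level of the smooth muscle contractile list against that of the pericyte list in each of the 23 mural barcodes, in CPM of that barcode, coloured by library. In 21 barcodes the contractile list is the higher, and WT SC mural 4 stands apart with 138 pericyte and 25 contractile UMIs.

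With fewer than 5 mural members in each WT library, KO and WT were compared only by an added alternative. In SC, 7 KO against 4 WT barcodes gave 107 of 1254 genes (8.53%) higher in KO and 57 (4.55%) lower. Of 11 pericyte genes 1 was higher and 4 lower (median -0.25), and of 16 contractile genes 1 was higher and none lower (median -0.04). In IP, 9 against 3 barcodes gave 320 of 2329 genes (13.7%) higher and 179 (7.69%) lower. There 3 of 14 pericyte genes were higher and 4 lower (median 0.38), and 6 of 19 contractile genes higher and 1 lower (median 0.19). Adipose stromal genes lay beside these values, with 3 of 5 lower in KO IP (median -2.53), and with 129 and 213 UMIs in WT IP mural 1 and 2, against 2 to 36 in KO IP. Dissociation and immediate early genes were higher in KO for 7 of 19 in SC (median 0.85), where both senescence regulators compared were higher too (2.39), and for 1 of 20 in IP, with 2 lower (median -0.37). The part of the stromal and dissociation genes was not tested.

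IP and SC mural barcodes were compared in KO, with 9 and 7 barcodes and sums of 186495 and 81597 UMIs. Of 2402 genes, 154 (6.41%) were higher in IP and 131 (5.45%) lower, with a median log2 ratio of -0.03. At least 50% of the UMIs came from 1 barcode in 32 of the 154 higher and 35 of the 131 lower genes. No mural member was a shared barcode.

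Igfbp5, an insulin-like growth factor binding protein, had 634 UMIs in 7 IP barcodes and 59 in 7 SC barcodes (2.22, 1.85 to 2.64). Trmt61b, a mitochondrial tRNA methyltransferase, had 84 against 2 (3.89). Tnc, a matrix glycoprotein, Auts2 and Cpxm2 had 41, 38 and 35 UMIs in IP and 0 in SC, at least 2.58, 2.47 and 2.35 higher on the log2 scale. Of these, 28 of 41 Tnc UMIs were in KO IP mural 8 and 31 of 38 Auts2 UMIs in KO IP mural 5, while Cpxm2 was spread over 7 barcodes.

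Lower in IP were Fgf13 (1 against 46, -6.15), Il1rapl1 (4 against 25, -3.70), Ranbp2 (6 against 21, -2.92), Nfkbia, the inhibitor of NF-kappaB (34 against 70, -2.22), and Ier3 (38 against 73, -2.13). Single SC barcodes held much of 3 of these, with 30 of 46 Fgf13 UMIs in KO SC mural 7, 15 of 25 Il1rapl1 UMIs in KO SC mural 3 and 39 of 73 Ier3 UMIs in KO SC mural 2.

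Matrix and basement membrane genes were higher in IP for 7 of 15 and lower for 1, with a median of 0.88. Fn1 (44 against 3, 2.48), Hspg2, perlecan (49 against 4, 2.27), Col6a1 (26 against 2, 2.21), Col1a2 (60 against 7, 1.82), Col18a1 (126 against 21, 1.36), Bgn (83 against 14, 1.33) and Sparc (296 against 62, 1.05) were the higher ones. Mgp was lower (22 against 22, -1.19), and its SC UMIs were in 1 barcode. Fn1 and Hspg2 were counted in all 9 IP barcodes. Adipose stromal genes lay beside these values, with a median of 20 UMIs per barcode in KO IP and 3 in KO SC. Median depths were 24146 and 11220 UMIs. All 3 stromal genes compared were above 0 in IP (median 0.56), and 1 was called higher, Col1a2, which is on both lists. The part of stromal genes was not tested.

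Contractile genes did not share a direction, with 1 of 18 higher (Smtn, 1.44) and 1 lower (Lmod1, -1.22) and a median of -0.05. Of 9 pericyte genes Gucy1b1 was lower (-1.09), with a median of 0.10. Capillary and lipid uptake genes were lower in IP for 4 of 6, which were Fabp4 (270 against 288, -1.29), Cd36, Pparg and Tcf15, with a median of -1.32. Ldha was higher (76 against 7, 2.16) as 1 of 9 glycolysis genes, whose median was 0.46, and as 1 of 2 higher among 8 hypoxia genes, with Ndrg1 (36 against 3). Of 5 senescence regulators Ccnd1 was higher (26 against 1). Il6 was higher (74 against 5, 2.57) and Cxcl1 lower (40 against 61, -1.80), a cytokine and a chemokine known from the secretory phenotype of senescent cells. Of 20 dissociation and immediate early genes 2 were higher (Jun and Klf4) and 3 lower (Ier3, Jund and Klf2), with a median of 0.19, and none of 12 mitochondrially encoded genes was called.

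Mesothelial barcodes of KO IP all carried the 3 rule genes. Msln, mesothelin, ranged from 1 to 78 UMIs with a median of 26.5 over the 12 barcodes, and Upk3b, a uroplakin, from 5 to 99 with a median of 37. Both are rule genes, as is Lrrn4, with 1 to 36 UMIs. The lowest values were in the shallowest barcodes, mesothelial 11 and 12 with 9079 and 3964 UMIs. The WT IP barcode had 41 Msln, 39 Upk3b and 24 Lrrn4 UMIs, inside the KO IP range. The KO SC copy had 1 Msln and 2 Upk3b UMIs.

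Genes outside the rule were counted in nearly all 12. Wt1, the transcription factor of the mesothelium, had 3 to 41 UMIs in every barcode (221 in all, 569 CPM), and the keratin Krt19 had 1 to 63 (253 in all, 652 CPM). Gpm6a (1435 CPM), Upk1b (703 CPM) and Muc16 (670 CPM), the CA125 mucin, were counted in 12 of 12. Slpi, a secreted protease inhibitor, was counted in 11 of 12, with 2173 UMIs (5599 CPM). The mesothelial list held 29396 CPM in KO IP and 36155 CPM in the WT IP barcode, against 3571 CPM in KO IP mural and 1560 CPM in KO IP endothelial barcodes. This list includes Wt1, C3 and Igfbp6, which stromal barcodes also held, as given below, and its level in stromal barcodes is not given.

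Stromal genes were shared in part. Dcn, the proteoglycan decorin, had 10300 CPM in the 12 barcodes against 13150 CPM in 183 Pdgfra-positive KO IP barcodes with no Msln. Dpt, dermatopontin, had 0 UMIs against 1933 CPM, Fbn1 (fibrillin) 142 against 2516 CPM, Col3a1 2146 against 9859 CPM and Pi16 23.2 against 429 CPM. C3, the central complement component, was abundant in both, at 6329 and 3973 CPM, and Igfbp6 was at 3899 and 832 CPM. The mesothelial barcodes thus had decorin and C3 without the stromal gene Dpt.

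The rule on Pdgfra left out further barcodes with mesothelial genes. In KO IP, 15 such barcodes had mesothelial sums of 41 to 191 (median 126) and were left out for 1 to 33 Pdgfra UMIs (median 10), at a median depth of 69487 UMIs. In these, Msln had 663 CPM, Upk3b 812, Wt1 441, Krt19 586 and Slpi 6365 CPM, and Dpt was again at 0. Dcn had 9147 CPM. Msln and Upk3b are rule genes that chose the 12 and the 15 and left out the 183, so their levels are a description. For Wt1, Krt19, Slpi, Dpt and Dcn the levels in the 15 lay nearer to those of the 12 members. Other genes of the mesothelial list went the other way, with the 15 nearer to the 183. In the 12, the 15 and the 183, Efemp1 had 1178, 404 and 593 CPM and Sulf1 539, 157 and 391 CPM. Dpp4 had 387, 132 and 87.4 CPM and Igfbp5 459, 133 and 28.5 CPM. These genes are examples from both sides, and the side was not counted over all genes. In the 183 other stromal barcodes Krt19 was at 1.36 CPM. Whether the 15 were doublets was not tested.

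**Figure D4:**
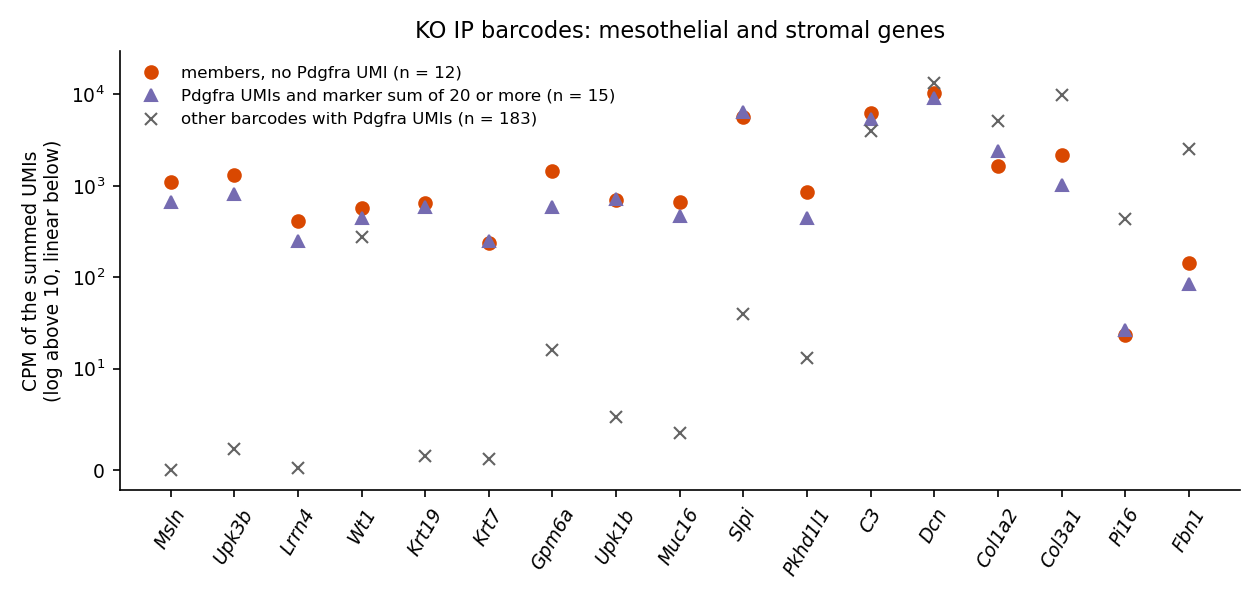
Levels in CPM of summed UMIs (log axis above 10, linear below) of mesothelial and stromal genes in KO IP for the 12 mesothelial barcodes, the 15 barcodes with a mesothelial sum and Pdgfra, and the 183 other stromal barcodes. The 12 and the 15 lie close for Krt19 (652 and 586 CPM), and the 183 lie apart at 1.36 CPM. Msln (1100, 663 and 0 CPM) is a rule gene that chose the 12 and the 15.

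Tert and the reporter tested the labels of the model only in part. Tert (chromosome 13, 73626911 to 73649843 on GRCm38) had 0 UMIs in all 62 members, which allows up to 10.7 CPM in WT IP and 36.8 CPM in KO IP endothelial barcodes. All barcodes together held 3 (WT) and 2 (KO) Tert UMIs in SC and 8 (WT) and 9 (KO) in IP. The deletion could therefore not be checked in endothelial barcodes at this depth.

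Tek, whose regulatory sequence drove Cre, had 26 UMIs in 9 of 16 WT IP and 5 UMIs in 4 of 5 KO IP endothelial barcodes. It was counted in 1 of 23 mural barcodes, KO IP mural 9. It was also counted in 138 of 235 stromal barcodes of WT IP and in 109 of 198 of KO IP.

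GFP was counted in 12 of 16 endothelial barcodes of WT IP (75.0%, 47.6% to 92.7%), with 406 and 363 UMIs in endothelial 1 and 2 and a median of 7 over the 16. Without the shared barcodes it was in 10 of 14 (71.4%, 41.9% to 91.6%). In KO IP 1 of 5 had it (20%, 0.505% to 71.6%), endothelial 1 with 173 UMIs, and the other 4 had 0. The shares expected after thinning every barcode to 2000 UMIs were 64.3% and 20%. Both WT SC barcodes had GFP (136 and 3 UMIs), as did both of KO SC (3 and 6, the latter in the shared barcode). The 4 KO IP barcodes without GFP included 3 with Mmrn1, Prox1 and Ccl21a, and in WT IP, endothelial 4, 6, 8 and 10 likewise had these genes and no GFP.

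Mural barcodes carried GFP as well, in 13 of 23 (56.5%, 34.5% to 76.8%, and 44.0% after thinning). Of the SC barcodes, 2 of 4 WT and 5 of 7 KO ones had it, and of the IP barcodes, 1 of 3 WT and 5 of 9 KO ones. The highest counts were 78 and 76 UMIs in KO IP, 66 in WT SC and 59 in KO SC. Mesothelial barcodes, which lie outside the known range of Tie2, had GFP in 2 of 14 (14.3%, 1.78% to 42.8%, and 0.970% after thinning), with 1 UMI each at a median depth of 29724 UMIs. Without the shared barcodes 1 of 12 mesothelial barcodes had it (8.33%, 0.211% to 38.5%). The mural median depth was 16350 UMIs, and all 13 mural barcodes with GFP had at least 2 UMIs. GFP was counted in 34.8% of stromal and 44.3% of Ptprc-positive barcodes (21.5% and 40.2% after thinning).

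The unrecombined reporter tdTomato was counted in 2 of 25 endothelial, 6 of 23 mural and 1 of 14 mesothelial barcodes. It was rare everywhere, with 417 UMIs over all barcodes against 32649 of GFP. Of stromal and Ptprc-positive barcodes 10.7% and 8.21% had it (1.16% and 2.27% after thinning). Neither reporter was counted in 7 endothelial, 6 mural and 11 mesothelial barcodes. A barcode without tdTomato can therefore not be read as recombined. The mural ones were WT SC 1 and 3 with 6 and 1 UMIs, all 3 of WT IP with 3, 2 and 3 UMIs, and KO IP 1 with 1 UMI. It was thus counted in 5 of 7 WT and 1 of 16 KO mural barcodes, and after thinning the share over all mural barcodes was 5.38%. This difference between libraries was not tested.

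**Figure D5:**
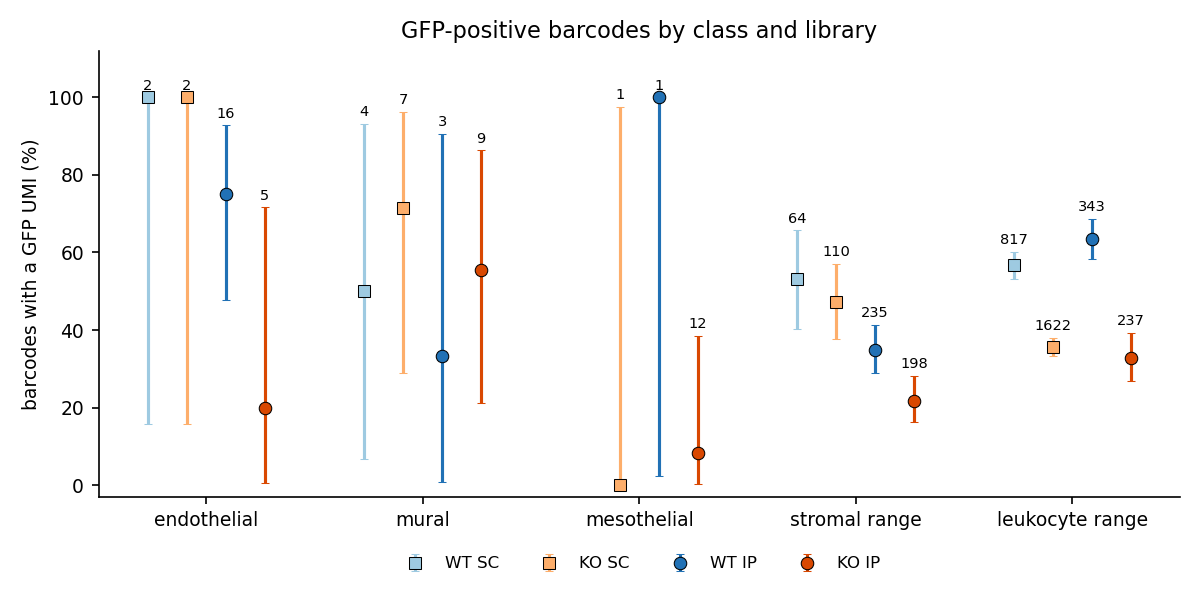
Share of barcodes with at least 1 GFP UMI by type and library, in percent, with exact 95% binomial intervals for counting error. Mesothelial barcodes of KO IP are low (1 of 12), and endothelial barcodes differ between WT IP (12 of 16) and KO IP (1 of 5) with intervals that overlap.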

How the data were processed

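The authors deposited raw counts of UMIs for each gene in each barcode, made with Cell Ranger (7.0.0 in the matrix headers) from 10x Genomics Chromium 3' libraries. The submitters' processing notes name STAR 2.6 and mm10. Each table held 32290 features, 5 of them reporter sequences. Near-identical gene copies may lose or exchange reads, and the use of intronic reads and strand is not given in the sources used here. UMIs of 4 libraries (10015201 to 15533961 in all) were summed per type and library, and 387 genes in 29 lists were followed. Log2 ratios were of CPM with 0.5 UMI added, with exact conditional binomial intervals. Shares had exact Clopper-Pearson intervals, and a count of 0 was given the limit of 3 UMIs. Comparisons needed 5 barcodes per library and 20 UMIs per gene, and genes named were the 5 furthest in each direction with a call. Genes of the lists were added as examples. No test across samples was run, with 1 library per group. Members and lists were chosen with earlier results of these data known. Doublets were marked with Scrublet (scanpy 1.11.5) at an expected 5% (23 of 4136 kept barcodes, 0.556%) and kept. The ratio, its interval and the call were tested on counts simulated from the summed UMIs with counting error only. Variation between barcodes was not simulated, so this test does not cover calls carried by 1 barcode. Python 3.11.15, numpy 2.4.6 and scipy 1.17.1 were used. Results for 1 gene, and the counts and medians of lists that hold it, are not reported here.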

Additional observations from a re-analysis of the deposited data

Results flagged for a closer look

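The feature GFPcds.rev, by its name the reverse of the GFP coding sequence, which no comparison used, held 26 UMIs over all barcodes. The mural share of kept barcodes differed between KO and WT in opposite directions in the depots, with a log2 ratio of -0.21 in SC and 1.96 in IP. That difference between depots was not tested.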

How the results depend on the processing

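Most values kept their direction under the alternatives tried (other minimum UMIs and genes per barcode, other marker sums, other scaling, equal weights, barcodes left out). With Pdgfra not used, the log2 ratio of the mural share in IP was -0.43. Among endothelial barcodes of IP, 135 genes were higher and 125 lower in KO at 50 UMIs per gene, 576 were higher with no minimum, 122 were higher and 132 lower without the deepest barcode of each library, and 476 were lower with equal weights. In mural barcodes of KO, 62 genes were higher and 38 lower in IP at 50 UMIs per gene, and 283 were lower with no minimum. At 2 GFP UMIs per barcode the mesothelial share in KO IP was 0%. With equal weights or without the deepest barcodes, the endothelial list medians that changed sign were those of mitochondrially encoded genes (0.27 with equal weights and 0.043 without the deepest barcodes), of dissociation genes (-0.31 and -1.14) and of all genes (-0.11 and -0.060), and of PDGF and Notch genes without the deepest barcodes (-0.24). With no minimum UMIs the median became -0.62 for hypoxia genes and, from -0.0036, 0.20 for matrix genes, which was 0.38 among barcodes with Mmrn1. In mural barcodes the medians of contractile (0.21 without the deepest barcodes), pericyte (-0.12 at 50 UMIs), mitochondrially encoded (0.12 without the deepest barcodes) and PDGF and Notch genes (0.25 with equal weights) also changed sign. These cover lists of at least 5 genes that are reported here. The cause was not tested. The comparisons by shared barcodes, by Mmrn1 and of mural KO with WT were chosen after seeing the data. No paired analysis was possible because the groups compared share fewer than 2 replicate numbers, with 1 library each, and WT was not paired with KO by depot. With 0 to 16 barcodes per type and library, an absence below the stated limits could not be seen.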
